A study of Arabidopsis lyrata subsp. lyrata with 8 samples.

Results

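The flower bud transcriptome of Arabidopsis lyrata ssp. lyrata was ranked by array signal, and the functions of its brightest genes were described. The members were the 300 brightest of 11150 gene models that carried an Arabidopsis thaliana gene code in their name and lay well above background on all 4 flower bud arrays. They were 2.69% of those models, and that share is the background for each count of gene list members given below. Functional classes, families and sites of expression were assigned by hand among the 300 alone. Their shares over all coded models were not counted, so those counts have no background. The ranking itself used the measured levels, so levels and ranks are a description and carry no test.

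All flower buds came from plants of one subspecies grown in hydroponics for 6 weeks, with no treatment, mutant or transgene named. Buds of several plants were pooled for each replicate, so a bud stage or a single plant cannot be followed. Total RNA of each of the 4 replicates was labelled with 1 dye, Cy3, and hybridised to a custom Agilent array with probes for 32386 gene models, of which 12409 (38.3%) carried a code. A further 1252 coded models had a level but were not well above background on all 4 arrays. The 75th percentile of the signal ran from 4803 to 5118 on the 4 arrays, 78.9% to 80.5% of the spots were well above background, and 0 spots were saturated.

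The variance between arrays 1 and 2 was 0.79 times that expected from repeated spots on an array, and between arrays 3 and 4 it was 0.98 times, while the other pairs had values of 8.98 to 20.2. The labels number the arrays as 4 biological replicates, and whether the arrays of a pair share a pool of plants or RNA is not given. By these values the arrays were counted as 2 samples, sample A (arrays 1 and 2) and sample B (arrays 3 and 4), and errors below are SDs over these samples (n = 2). A level is the log2 signal minus the log2 of the 75th percentile of its array, so that a level of 0 is the 75th percentile itself. Every rank is a rank of probe signal. Probes bind with different strength, so ranks do not give the order of transcript numbers. Buds are a mix of cells, and fewer cells of a type cannot be told apart from less RNA per cell.

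A flower bud holds sepals, petals, stamens and carpels at once, whose identities are set by combinations of MADS-box transcription factors. Within the stamen, the anther makes pollen. Its innermost layer, the tapetum, feeds the developing grains, supplies the precursors of the pollen wall and, as it breaks down, leaves lipids and glycine-rich oleosins on the grain as the pollen coat. Ripening pollen stores transcripts for pectin enzymes and arabinogalactan proteins of the wall of the later pollen tube. Sepals are green and photosynthetic, and young floral tissue is rich in ribosomes.

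The label flower bud was checked against marker lists. Many genes of these lists had no coded model on the array, so the lists were seen in part. Coded models were there for 7 of 14 floral identity genes, 11 of 19 carpel and ovule genes and 22 of 31 anther genes. For late pollen they were there for 25 of 51 genes, for the pollen coat for 4 of 13 and for the cuticle for 15 of 32. All 7 measured regulators of floral organ identity were well above background on all 4 arrays, and 3 of them were among the 300. Of all 12402 coded models with a level, 11150 were well above background on all 4 arrays, so that count alone says little. Of 13 measured models of the root list, 7 were above background on no array, including WER, a regulator of root epidermis, and CASP2 and CASP5, proteins of the Casparian strip. The 5 root models that passed on all 4 arrays ranked from 6744 (IRT1, AT4G19690, an iron transporter) and 6771 (COBL9, AT5G49270, a root hair wall protein) through 10128 (PHT1;1, AT5G43350, a phosphate transporter) and 10699 (CYP86A1, AT5G58860, of suberin synthesis) to 10716 (CASP1, AT2G36100). Of the seed storage genes, the cruciferins CRA1 and CRU3 were well above background on no array and the oleosin OLE1 on 1.

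The 300 models had levels from 6.69 down to 3.61, with a median of 4.45, against a median of -0.61 over all 11150 coded models that passed. They held 35.3% to 36.4% of the summed signal of coded models on the 4 arrays. They stood for 292 codes, since 8 codes had 2 models each among them. Gene functions below are those known from A. thaliana. By function, 40 models belonged to cytosolic translation, 40 to photosynthesis and the plastid, 37 to the cell wall, 28 to primary metabolism and mitochondria, 26 to protein folding and turnover and 18 to membrane transport. Smaller classes were lipid transfer, cuticle and lipid metabolism with 13, transcription and RNA with 12, signalling and hormones with 9, redox and metals with 8, secondary metabolism and defence with 8, chromatin with 3, pollen wall and coat with 2 and the cytoskeleton with 1. The remaining 55 were placed in no class, and 38 of them had no role given here.

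**Figure D1:**
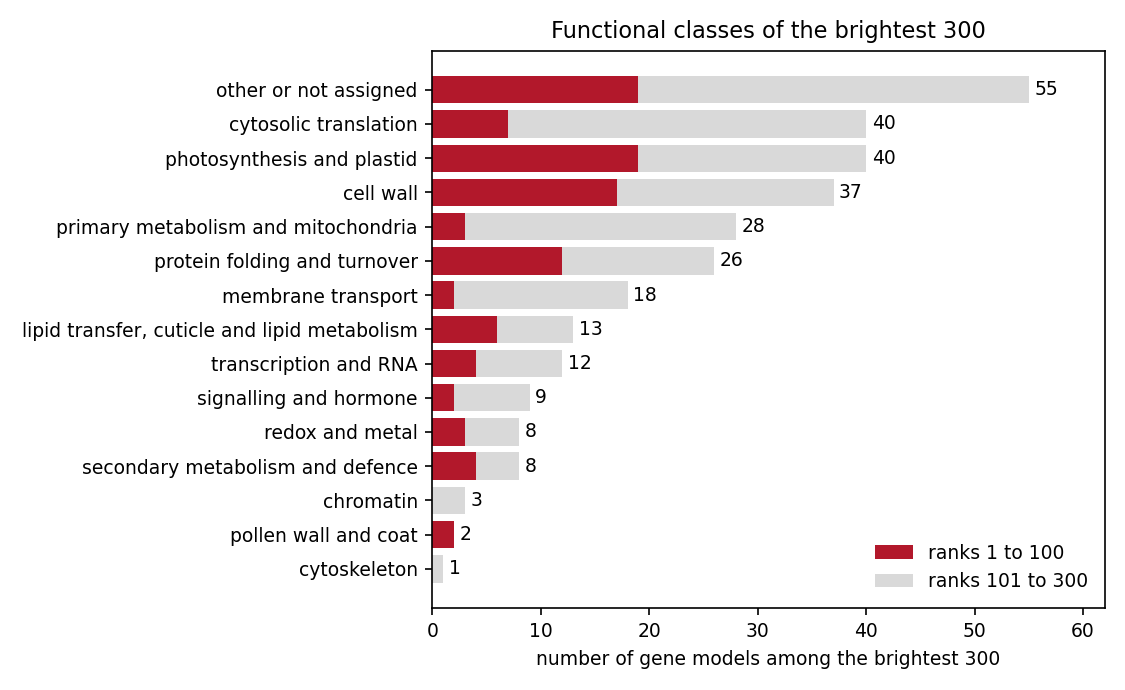
Number of gene models in each functional class among the brightest 300 coded models of the flower bud, split into ranks 1 to 100 (red) and ranks 101 to 300 (grey), with the class total beside each bar. Photosynthesis and the cell wall supplied 19 and 17 of the first 100 models, and cytosolic translation 7 of them although it held 40 of the 300.

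The classes were spread unevenly over the ranks. Of the 100 brightest models, 19 belonged to photosynthesis and the plastid, 17 to the cell wall and 12 to protein folding and turnover. Cytosolic translation supplied 7 of the first 100, and primary metabolism and mitochondria 3. The highest level was that of GRP7 (AT2G21660), a glycine-rich RNA-binding protein under clock control, at 6.59, 6.63, 6.80 and 6.74 on arrays 1 to 4. It was followed by HIRD11 (AT1G54410), a dehydrin, at 6.51 ± 0.10 (SD, n = 2) and by psaB (ATCG00340), a core protein of photosystem I, at 6.49 ± 0.01. AT1G13930 (6.47 ± 0.08) and AT3G49540 (6.44 ± 0.02), with no role given here, came next.

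A known site of expression could be named for 51 of the 300 models, and for the other 249 none was assigned. Pollen was named for 20 models, green tissue for 23, the epidermis for 3, tapetum and pollen coat for 2, petal and stamen for 2, and petal, stamen and carpel for 1. Of the 20 pollen models, 13 ranked among the first 100, and of the 23 green tissue models, 12 did. These pointers rest on what the genes are known for in A. thaliana, and no organ was sampled by itself.

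The 20 models given a pollen pointer were all proteins of the cell wall or wall enzymes, with levels from 6.38 to 3.82 and a median of 5.09. The pointers were given by hand. Some members, such as AT3G28750 at rank 40, had neither a role nor a site given here, so pollen genes of other kinds may be missed. The brightest was an exopolygalacturonase (AT3G07850), an enzyme that trims pectin, at 6.36, 6.38, 6.41 and 6.36 on arrays 1 to 4; a second model with the same code stood at 5.27 ± 0.12, on a probe of its own. VGD1 (AT2G47040), the pectin methylesterase VANGUARD1 that pollen tubes need for growth through the style, read 6.17, 6.17, 6.23 and 6.15, and its relative VGDH2 (AT3G62170) read 5.02, 5.04, 5.14 and 5.14. Sample B was higher by 0.02 for VGD1 and by 0.11 for VGDH2 on the log2 scale. The median size of the difference among the 300 was 0.15.

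Of the 300 models 12, counting VGD1, VGDH2 and both models of AT3G07850, coded for enzymes of pectin or their inhibitors.
Further members of this group with known expression in pollen were the exopolygalacturonase AT3G07820 at 4.97 ± 0.03, the polygalacturonase AT5G48140 at 4.33 ± 0.01, the pectate lyases AT3G01270 at 4.23 ± 0.03 and AT5G15110 at 4.23 ± 0.06, and the pectin methylesterase AT3G05610 at 3.82 ± 0.01. The pectin methylesterase inhibitors AT2G47050 (5.10 ± 0.10) and AT1G10770 (4.50 ± 0.06) were members as well, so that both the enzymes and proteins that restrain them were bright. PME34 (AT3G49220), at 4.27, was the member of the group with no pollen pointer.

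Arabinogalactan proteins, heavily glycosylated proteins of the wall and cell surface, supplied 8 members. AGP6 (AT5G14380), needed with AGP11 for pollen grain and tube development, read 5.49, 5.47, 5.53 and 5.40 on arrays 1 to 4, and AGP11 (AT3G01700) read 4.66, 4.67, 4.74 and 4.80. AGP23 (AT3G57690) stood at 5.33 ± 0.06 and the fasciclin-like FLA3 (AT2G24450), of the inner pollen wall, at 5.12 ± 0.00. The arabinogalactan proteins AGP15, AGP9, AGP12 and AGP24, with no pollen pointer, ranked 77, 195, 196 and 197. The multicopper oxidase-like wall proteins of pollen gave 3 members, SKS13 (AT3G13400) at 5.66 ± 0.02, SKS14 (AT1G55560) at 4.12 ± 0.02 and SKS11 (AT3G13390) at 4.09 ± 0.01.

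Of 25 measured models of the list of late pollen and pollen tube genes, 24 passed on all 4 arrays and 8 were among the 300 (VGD1, SKS13, AGP6, AGP23, VGDH2, AGP11, SKS14 and SKS11). The next in rank were AT59 (AT1G14420), a pectate lyase, at 313, TUB9 (AT4G20890), a tubulin, at 320, RALF4 (AT1G28270), a signal peptide of the tube, at 368, and TUA1 (AT1G64740), a tubulin, at 402. Pollen genes of other roles ranked lower. The actin regulators ADF7 and ADF10 were at 1213 and 3279, the receptor kinases PRK2 and PRK4 at 1132 and 4440, the actins ACT4 and ACT12 at 6885 and 7873, and the MADS-box regulators AGL66 and AGL65 at 6617 and 9260. MYB97 (AT4G26930), a regulator of the pollen tube, was well above background on no array. All 8 members of the list were proteins or enzymes of the wall.

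The sperm cell list had 3 measured models and none among the 300. HTR10 (AT1G19890), a histone of the male gamete, ranked 2719, GEX1 (AT5G55490), a gamete membrane protein, 7232, and DUO1 (AT3G60460), a regulator of sperm formation, 9659.

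The pollen coat was represented by 2 glycine-rich oleosins of the tapetum. GRP19 (AT5G07550) read 4.71 and 4.78 on the arrays of sample A and 5.64 and 5.60 on those of sample B. GRP20 (AT5G07560) read 4.51 and 4.49 in sample A and on average 4.99 in sample B. Sample B was higher by 0.87 for GRP19 and by 0.49 for GRP20 on the log2 scale, where the median size of the difference among the 300 was 0.15. GRP19 ranged from rank 29 to rank 90 over the settings tried. The other 2 measured pollen coat models were GRP16 (AT5G07520), an oleosin at rank 764, and EXL5 (AT1G75920), an extracellular lipase at rank 10671, at -7.50, -7.56, -4.30 and -4.40 on arrays 1 to 4.

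None of the 23 measured models of the anther and tapetum list was among the 300, although 22 passed on all 4 arrays. The brightest were both models of ATA20 (AT3G15400), a glycine-rich anther protein, at ranks 514 and 524, CEP1 (AT5G50260), a cysteine protease of tapetum breakdown, at 857, and AMS (AT2G16910), a master regulator of the tapetum, at 1068. The first ATA20 model read 2.02 and 2.00 in sample A and 4.13 and 4.11 in sample B; ranked on sample B alone, both ATA20 models were among the 300. CEP1 read 2.43, 2.51, 2.39 and 2.42 and differed little between the samples.

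The anther list was the one that differed most between the 2 samples. Of its 22 models that passed, 16 were at least 2-fold higher in sample B and 0 at least 2-fold lower, with a median difference of 1.80 on the log2 scale, where 2.34% of all coded models were at least 2-fold higher and 1.0% at least 2-fold lower. PKSB (AT4G34850), a polyketide synthase of sporopollenin, the polymer of the outer pollen wall, read -3.01 and -3.04 in sample A and 1.84 and 1.95 in sample B, a 30.2-fold difference. MS1 (AT5G22260), a regulator of late tapetum development, read -7.04 and -6.94 in sample A and -1.73 in both arrays of sample B, a 38.3-fold difference. In sample A MS1 lay not far above background: OLE1, with a mean level of -8.10, was well above it on 1 array. Fold sizes can depend on background correction: over all models, normexp lowered those at least 2-fold higher from 762 to 503. TDF1 (AT3G28470), an early tapetum regulator, was well above background on arrays 3 and 4 and not on arrays 1 and 2.

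Other anther genes past 2-fold were of the same direction. PKSA (AT1G02050) was 8.57-fold and A6 (AT4G14080), a glucanase-like protein of the anther, 8.38-fold higher in sample B. SHT (AT2G19070), an enzyme of the phenolic coat of the grain, did not pass at 1.08-fold, and NEF1 and CEP1 were lower in sample B by 0.06 on the log2 scale. Both samples bear the same label, and a bud stage is not given for either, so whether stage differed was not tested. With 1 sample counted on each side these differences have no replicate check.

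Regulators of floral organ identity gave 3 members. The transcription and RNA class held, besides them, the transcription factors HB6, NAC019 and BBX24 at ranks 135, 212 and 224. PISTILLATA (PI, AT5G20240), which specifies petals and stamens with APETALA3, read 5.33, 5.36, 5.01 and 5.03 on arrays 1 to 4 and ranked 50. APETALA3 (AP3, AT3G54340) read 4.98, 4.99, 4.75 and 4.69 and ranked 88. SEPALLATA3 (SEP3, AT1G24260), a partner of the identity factors in petals, stamens and carpels, read 4.21, 4.23, 3.98 and 3.82 and ranked 214. All 3 were lower in sample B by 0.27 to 0.32 on the log2 scale, under the 2-fold mark. The arrays of a sample were counted as repeats by their variance alone, so these differences say nothing of the spread between samples. The median size of the difference among the 300 was 0.15.

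The other measured identity genes stood outside the 300. APETALA1 (AP1, AT1G69120), of sepal and petal identity and the floral meristem, ranked 850 at 2.45 ± 0.07, and APETALA2 (AP2, AT4G36920), of sepals and petals, ranked 3002 at 0.69 ± 0.07. AGL6 (AT2G45650) ranked 6862 at -1.32 ± 0.32, and SUPERMAN (SUP, AT3G23130), which keeps stamens out of the carpel domain, ranked 9922 at -4.41 ± 0.45. AGAMOUS and the other genes of the list had no coded model on the array and were not analysed here.

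Carpel and ovule genes gave no member. Of 12 measured models 10 passed, with CRABS CLAW (CRC, AT1G69180), a regulator of carpel shape and nectaries, highest at rank 693, read at 2.58, 2.58, 2.83 and 2.79. Both models of NGATHA1 (NGA1, AT2G46870), a regulator of the style, followed at ranks 1902 and 1905. HEC1 was well above background on 1 array and HEC2 on 0. The measured identity genes held none that specifies carpels alone, so the ranking could give no carpel identity member. Flavonoid genes, which serve petal pigment and the pollen coat, also gave no member. The brightest of 10 was chalcone synthase (CHS, AT5G13930), the entry enzyme of the pathway, at rank 506 and 3.09 ± 0.10, then CHI (AT3G55120) at rank 3313 and F3'H (AT5G07990) at rank 3660, with F3H (AT3G51240) lowest at rank 8843.

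**Figure D2:**
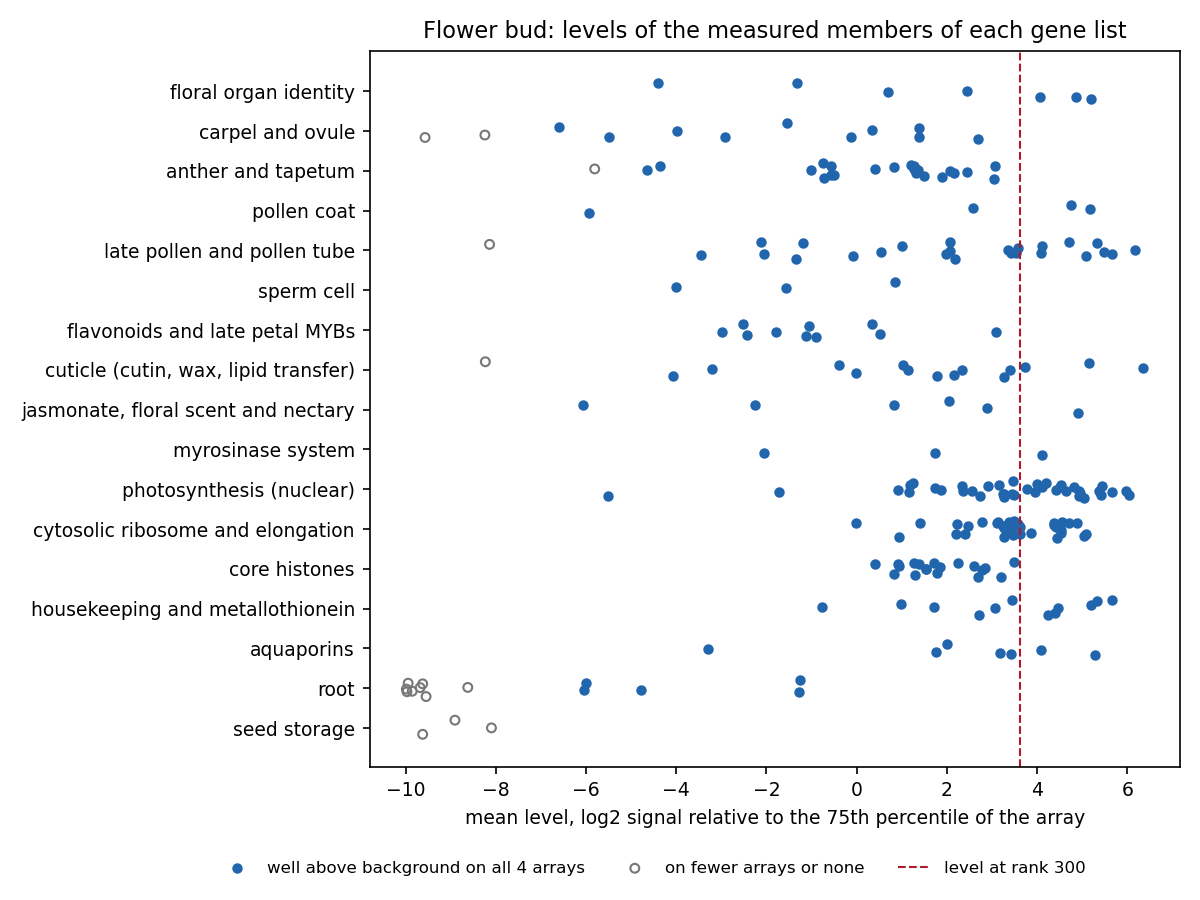
Mean level over the 4 flower bud arrays (log2 signal relative to the 75th percentile of the array) of each measured model of 17 gene lists, with filled points for models well above background on all 4 arrays and open points for the others; the dashed line marks the level at rank 300, 3.61. Photosynthesis, ribosome, late pollen, pollen coat and floral identity lists reach past the line, while no point of the carpel, anther, sperm, flavonoid, histone, root or seed storage lists does.

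Photosynthesis and the plastid supplied 40 members, 23 of them nuclear genes of green tissue and 15 models named for plastid genes. CP12-1 (AT2G47400), a redox switch of Calvin cycle enzymes, was the brightest nuclear one, at 6.20 and 6.21 in sample A and 6.44 and 6.46 in sample B. Small subunits of Rubisco, the carbon-fixing enzyme, followed: RBCS3B (AT5G38410) at 6.11, 6.11, 6.17 and 5.79 and RBCS1B (AT5G38430) at 5.95, 5.99, 5.97 and 5.94. These genes are near-identical copies, and the probes may not separate them. Not all measured small subunit genes were members: RBCS1A (AT1G67090) stood far lower, at 1.75 ± 0.02 and rank 1452.

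Light-harvesting proteins, which bind chlorophyll and pass light energy to the photosystems, gave 10 models with levels from 5.67 to 3.95. The brightest was LHCB1.3 (AT1G29930) at 5.72, 5.70, 5.75 and 5.50, followed by LHCB4.1 (AT5G01530) at 5.44 ± 0.05 and LHCB2.3 (AT3G27690) at 5.41 ± 0.05. All 4 measured antenna proteins of photosystem I were members, LHCA3 at rank 67, LHCA1 at 79, LHCA4 at 82 and LHCA2 at 156. Another 6 members were nuclear subunits of the photosystems themselves, from PSAO (AT1G08380) at 4.93 ± 0.01 to PSAG (AT1G55670) at 3.77 ± 0.01. Rubisco activase (RCA, AT2G39730) stood at 4.82 ± 0.12 and the plastid aldolase FBA2 (AT4G38970) at 4.50 ± 0.05.

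Of the list of nuclear photosynthesis genes, all 40 measured models passed and 20 were among the 300, the same number as stood outside. The dimmest was LHCB6 (AT1G15820), a minor antenna protein, at -5.73, -6.11, -5.77 and -4.40, and LHCB3 (AT5G54270) was at -1.72 ± 0.02. The other measured models of the list were within the first 2591 ranks. Photorespiration, which recycles the by-product of the oxygenase reaction of Rubisco, gave 3 members, SHM1 (AT4G37930) at rank 246, GGT1 (AT1G23310) at 255 and GOX1 (AT3G14420) at 258. NYC1 (AT4G13250), an enzyme of chlorophyll breakdown, was also a member at 3.72.

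The 37 models with a plastid code all passed, with levels from 6.49 to -1.75 and a median of 2.93, and 15 of them (40.5%) were among the 300. They stood for 11 plastid genes. After psaB came the plastid 23S ribosomal RNA (ATCG00950) at 6.33 ± 0.03, both models of the ATP synthase subunit gene atpE (ATCG00470) at 6.31 ± 0.05 and 6.04 ± 0.03, and petA (ATCG00540), for cytochrome f, at 5.56 ± 0.06. Both models of rbcL (ATCG00490), for the large subunit of Rubisco, were at ranks 154 and 159. Of the 37 models 33 were named for scaffolds 1 to 8 of the nuclear assembly, so whether their probes read plastid transcripts or nuclear copies of plastid DNA cannot be told apart here. The 5 models with a mitochondrial code passed, and 0 were among the 300.

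Cytosolic translation supplied 40 members, 35 of them ribosomal proteins, in levels from 5.14 to 3.61. The brightest were RPL27aB (AT1G23290) at 5.02 and 5.04 in sample A and 5.26 and 5.25 in sample B, the initiation factor eIF5A-2 (AT1G26630) at 5.09 ± 0.05, RPL27aC (AT1G70600) at 5.07 ± 0.16, RPL18B (AT3G05590) at 5.04 ± 0.13 and RPL10aB (AT2G27530) at 4.89 ± 0.15. The elongation factor EF1A was a member with AT5G60390 at 4.56 and AT1G07930 at 4.41. All 40 lay higher in sample B, by 0.04 to 0.67 with a median of 0.25 on the log2 scale, and the median of the 300 was 0.01.

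The list of 33 ribosomal and elongation genes had 13 members among the 300, and 29 within the first 1000 ranks. These 13 also belong to the class of cytosolic translation, so the list and the class overlap. The dimmest model of the list was RPS19A (AT3G02080) at -0.01. All 33 were higher in sample B, by 0.04 to 0.41 on the log2 scale, and 0 by 2-fold or more. The median difference over all coded models that passed was -0.02. Core histones, made mainly while DNA is copied, gave no member among 19 models. HTB4 (AT5G59910), a histone H2B, came closest at rank 330, followed by histone H4 models at 462 (AT5G59690) and 607 (AT1G07820), and HTA10 (AT1G51060) was lowest at rank 3514. The chromatin members were the linker histone H1.1 (AT1G06760) at 4.63 ± 0.11, HMGB2 (AT1G20693), a DNA-bending protein, at 4.59 ± 0.20, and the histone chaperone NAP1;2 (AT2G19480) at 4.25 ± 0.09.

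The cell wall class also held genes with no site of expression given here. XTH4 (AT2G06850), which cuts and rejoins xyloglucan chains of the wall, was at 6.41, 6.40, 6.35 and 6.38 and ranked 6. The extensin-like protein ELP (AT1G12090) was at 6.23 and 6.24 in sample A and 6.04 and 5.98 in sample B. The proline-rich protein PRP4 (AT4G38770) was at 5.13, the expansin EXPA1 (AT1G69530), which loosens walls, at 4.13, and CTL1 (AT1G05850), a chitinase-like protein of cellulose assembly, at 3.82.

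Of the surface of the bud, lipid transfer proteins were the brightest. LTP1 (AT2G38540), known from the epidermis, was at 6.43 and 6.43 in sample A and 6.29 and 6.23 in sample B, and ranked 8. LTP3 (AT5G59320) was at 5.15 ± 0.11. CER3 (AT5G57800), of wax alkane synthesis, was at 3.92, 4.04, 3.55 and 3.45, and its rank ran from 228 to 345 over the settings tried. The next cuticle genes, CYP77A6 (AT3G10570) of petal cutin at rank 381 and MAH1 (AT1G57750) of wax at rank 432, lay just outside. Of 15 cuticle models measured, 14 passed and 3 were members, and the transporter ABCG11 (AT1G17840) was well above background on no array. Lipid genes among the members were also FAD2 (AT3G12120), an oleate desaturase, at 5.19 ± 0.08, and a GDSL lipase (AT3G16370) at 5.18 ± 0.11.

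Protein folding and turnover held 26 members. CYS2 (AT2G31980), a cystatin that blocks cysteine proteases, was at 5.53, 5.54, 5.92 and 5.86, and HSC70-1 (AT5G02500), a cytosolic chaperone, at 5.67 ± 0.00. Cysteine proteases were there as well, with AALP (AT5G60360) at 5.64 ± 0.07, RD19A (AT4G39090) at rank 37, RD21A (AT1G47128) at rank 96 and SAG12 (AT5G45890), known as a marker of senescing leaves, at rank 121. PASPA3 (AT4G04460), an aspartic protease known from tissues in programmed cell death, ranked 72. Polyubiquitin genes gave 5 models, UBQ14 (AT4G02890) at 5.44 ± 0.10, UBQ3 at 5.33, UBQ4 at 4.98 and 2 models of UBQ10 (AT4G05320) at 5.20 and 4.46. NBR1 (AT4G24690), a receptor of selective autophagy, ranked 54, and ATG8C (AT1G62040), its membrane-bound partner, 199.

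Reference genes of expression studies were members in 6 of 12 measured models, namely HSC70-1, UBQ3, both UBQ10 models, ACT7 (AT5G09810), an actin at 4.38 ± 0.06 and the one cytoskeletal member, and GAPC1 (AT3G04120), of glycolysis, at 4.25 ± 0.11. SAM1 (AT1G02500), of methyl donor synthesis, was the dimmest of that list at -0.77 ± 0.07. None of the 6 differed between the samples by more than 0.26 on the log2 scale.

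Primary metabolism and mitochondria gave 28 members but 3 within the first 100. These were CPuORF9 (AT3G02468), an upstream reading frame of a polyamine synthesis gene, at 5.37 ± 0.13, the nucleoside diphosphate kinase NDPK1 (AT4G09320) at 5.18 ± 0.14, and a subunit of mitochondrial ATP synthase (AT2G07671) at 4.82 ± 0.19. Mitochondrial electron transport and ATP synthase accounted for 7 members in all. SUS3 (AT4G02280), a sucrose synthase, was at 4.34 and 4.35 in sample A and 3.72 and 3.75 in sample B. Glutamine synthetase of the plastid (GLN2, AT5G35630) was at 4.37 and the methionine adenosyltransferase MTO3 (AT3G17390) at 4.68.

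Water channels were the main transporters among the members, with 6 aquaporins. PIP2;7 (AT4G35100), of the plasma membrane, was at 5.82, 5.85, 5.80 and 5.85, and TIP1;1 (AT2G36830), of the vacuole, at 5.11, 5.13, 5.45 and 5.42. PIP2;6 (AT2G39010) ranked 120, PIP1;5 (AT4G23400) 141, TIP2;1 (AT3G16240) 210 and SIP1A (AT3G04090) 285. The separate aquaporin list had 2 members of 7, TIP1;1 and TIP2;1, with PIP2A (AT3G53420) next at rank 367 and PIP1B (AT2G45960) last at 9113. The nitrate transporter NRT1.7 (AT1G69870), which moves nitrate out of older leaves, was at 3.95, and SWEET14 (AT4G25010), a sugar exporter, at 3.63 and rank 296.

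Among the hormone genes, GASA4 (AT5G15230), a gibberellin-regulated peptide, was at 4.82 ± 0.12, GIL1 (AT5G58960), of light-controlled growth, at 4.51 ± 0.23, and DWF1 (AT3G19820), of brassinosteroid synthesis, at 4.31 ± 0.36. Of 6 measured jasmonate models, VSP2 (AT5G24770), a jasmonate-induced acid phosphatase, was the member, at 4.64 and 4.68 in sample A and 5.23 and 5.11 in sample B. The jasmonate synthesis genes OPR3 (AT2G06050) and LOX2 (AT3G45140) ranked 593 and 1172, and AOC2 (AT3G25770) was lowest at 10724.

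Defence was represented by BGLU18 (AT1G52400), a beta-glucosidase of endoplasmic reticulum bodies, at 5.57, 5.61, 5.85 and 5.87, by NSP5 (AT5G48180), which steers glucosinolate breakdown to nitriles, at rank 73, and by the defensin PDF2.3 (AT2G02130) at 4.82 ± 0.01. Of the myrosinase system, which breaks down glucosinolates, ESM1 (AT3G14210) ranked 207 and was higher in sample B by 0.59 on the log2 scale, while the binding protein MBP2 (AT1G52030) ranked 1478 and the myrosinase TGG1 (AT5G26000) 7868. Redox members were led by the ascorbate peroxidase APX1 (AT1G07890) at 5.54 ± 0.05, the copper protein BCB (AT5G20230) at 5.36 ± 0.04 and the thioredoxin-dependent peroxidase TPX1 (AT1G65980) at 5.34 ± 0.05.

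The members placed in no class included genes known from dormancy, cold and drying, grouped by hand among the 300 alone. The dormancy/auxin-associated proteins gave 3 members, AT1G56220 at 6.21, 6.24, 6.32 and 6.12, DRM2 (AT2G33830) at 5.87, 5.93, 6.01 and 5.97, and DRM1 (AT1G28330) at rank 68. With HIRD11, 7 members were known as induced by cold or dehydration. Not all of the 7 were without a class, since RD19A was counted under protein folding and turnover. Among the 7 were KIN2 (AT5G15970) at 5.42 and 5.49 in sample A and 6.04 and 5.82 in sample B, and RAB18 (AT5G66400), a dehydrin, at 5.03 ± 0.01. The auxin- and aluminium-responsive protein AILP1 (AT5G19140) ranked 18 at 5.99 ± 0.18. RNA-binding proteins related to GRP7 were GRP8 (AT4G39260) at 5.11 ± 0.04 and GR-RBP2 (AT4G13850) at 3.81 ± 0.49.

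**Figure D3:**
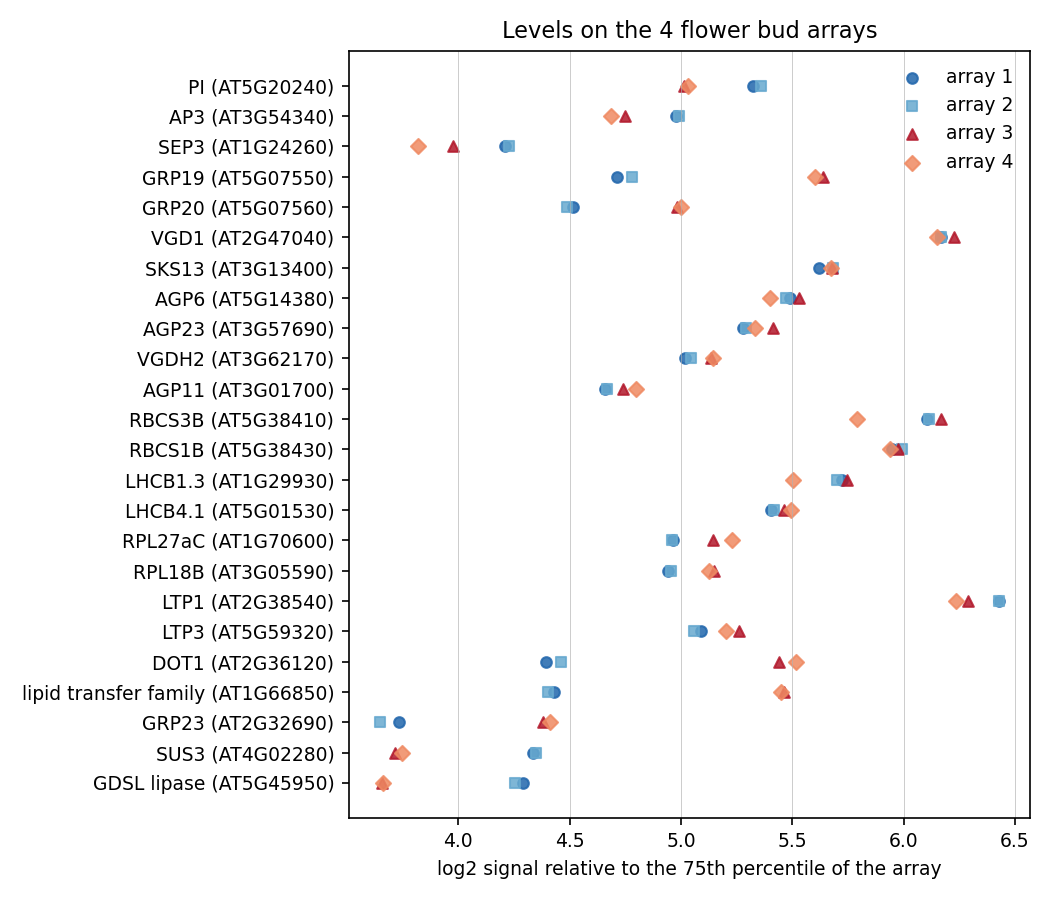
Levels (log2 signal relative to the 75th percentile of the array) of 24 members on each of the 4 flower bud arrays, with arrays 1 and 2 (sample A) in blue and arrays 3 and 4 (sample B) in red and orange. Points of the pollen wall genes and of RBCS1B lie close together over all 4 arrays, while the samples part for GRP19, DOT1, the lipid transfer protein AT1G66850, GRP23, SUS3 and the GDSL lipase.

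The median size of the difference between the 2 samples was 0.15 on the log2 scale among the members, 0.13 at ranks 301 to 1000 and 0.16 over all coded models that passed. Among the members it was 0.026 between arrays 1 and 2 and 0.035 between arrays 3 and 4. Of the 300, 289 differed by less than 1.5-fold between the samples. Over all 24934 models that passed, 3.06% (762) were at least 2-fold higher in sample B and 1.17% (292) at least 2-fold lower, and with normexp background correction 503 and 171 were. Over the coded models the shares were 2.34% and 1.0%. Of the 300, 2 (0.667%) were at least 2-fold higher and 0 lower. Differences of 2-fold or more in either direction made up 0.667% of ranks 1 to 300, 1.0% of ranks 301 to 1000, 1.5% of ranks 1001 to 3000 and of ranks 3001 to 6000, and 5.61% of the ranks beyond.

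The 2 members past 2-fold were DOT1 (AT2G36120), a glycine-rich protein of leaf vein patterning, and AT1G66850, of the lipid transfer family. DOT1 read 4.40 and 4.46 in sample A and 5.44 and 5.52 in sample B, a 2.07-fold difference. AT1G66850 read 4.43 and 4.40 in sample A and 5.46 and 5.45 in sample B, a 2.06-fold difference. Next came GRP19, the glycine-rich protein GRP23 (AT2G32690) at 1.63-fold and GR-RBP2 at 1.61-fold.

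The largest falls from sample A to sample B were in AT1G64370, with no role given here, by 0.80 on the log2 scale, the GDSL lipase AT5G45950 by 0.61, SUS3 by 0.61, SASP (AT3G14067), a subtilisin protease of senescence, by 0.52, and NRT1.7 by 0.51. The pollen models moved little, with differences between -0.17 and 0.14 and a median of 0.02. The median over the list of late pollen genes that passed was also 0.02, and MYB101 (AT2G32460), a regulator of the pollen tube, was its one model past 2-fold, higher in sample B by 1.06 on the log2 scale.

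**Figure D4:**
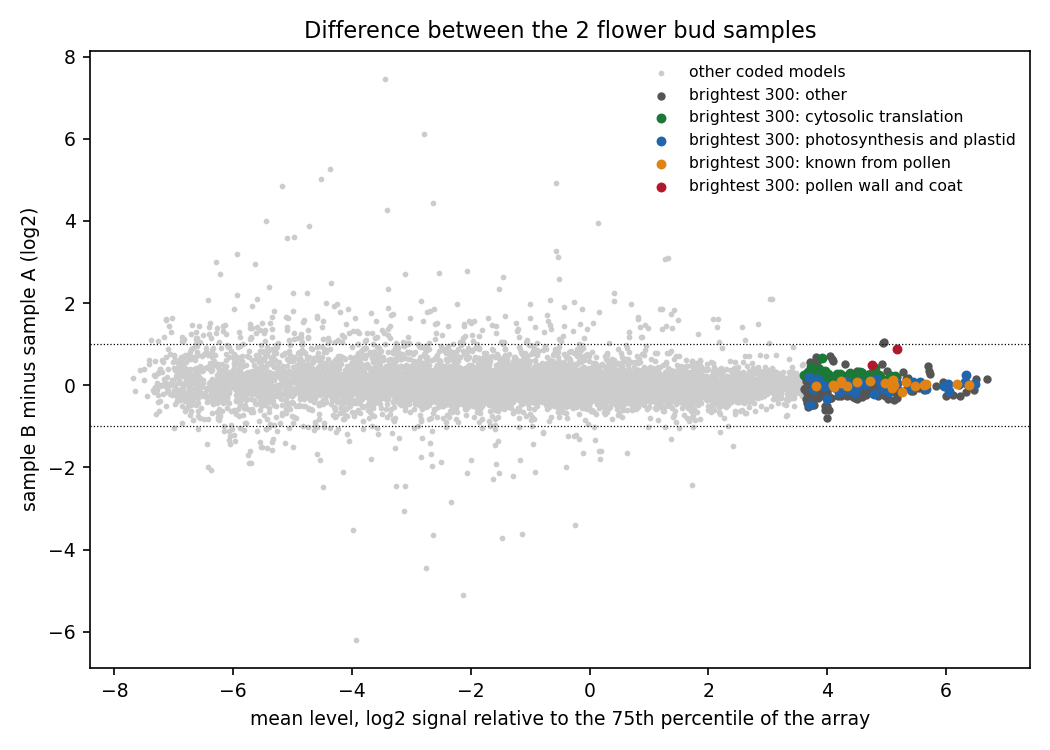
Difference between the samples (sample B minus sample A, log2) against the mean level (log2 signal relative to the 75th percentile of the array) for all 11150 coded models that passed, with the brightest 300 in colour or dark grey and dotted lines at 2-fold. Cytosolic translation lies above 0 for all 40 members, pollen members lie close to 0, and 2 members lie above the upper line.

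The boundary at rank 300 fell in a dense stretch of levels. PEX13 (AT3G07560), a peroxisome import protein, and a mitochondrial Rieske protein (AT5G13440) stood at ranks 298 and 299 at 3.62, and RPS24A (AT3G04920), a ribosomal protein, at rank 300 at 3.61. RPL9C (AT1G33140), also ribosomal, at 3.61, and AT3G23390 at 3.60 stood just outside.

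Some members were neighbours in the gene order of A. thaliana. Of the 281 nuclear codes among the 300, 34 (12.1%) were next to another member in the order of the coded models that passed, and of the 10651 nuclear codes outside, 521 (4.89%) were next to a member. Tandem relatives among these pairs were GRP19 with GRP20, SKS11 with SKS13, LHCB1.2 with LHCB1.3, and RBCS3B with RBCS1B, and relatives like these may share hybridisation signal. Other pairs of the 17 joined unlike genes, such as VGD1 with the pectin methylesterase inhibitor AT2G47050, PI with BCB, RPL27aB with GGT1, and SIP1A with GAPC1. Members made up 2.05% to 3.13% of the coded models on each of scaffolds 1 to 8 of the A. lyrata assembly, all near 2.69%.

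Models without a code could not be described by function. Of all models well above background, 262 without a code were brighter than the model at rank 300, which stood at rank 562 among all, and 7 of the 20 brightest of all carried no code. The counts above therefore describe the coded share of the brightest transcripts.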

How the data were processed

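Signals came from scanner files of 4 arrays. Per the file headers, Agilent Feature Extraction 10.10.1.1 wrote the intensity of each spot as a processed signal with flags for outliers, saturation and signal well above background. The deposited value table, in log2, served as an alternative. Its differences between the samples rose with those of the scanner values at a slope of 0.989, and its mean levels correlated with them across models at r = 0.174, as values centred per probe would; on which value they were centred stays unknown. Its columns had medians of -0.04, -0.05, -0.03 and 0.06.

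Control spots and outliers did not enter, repeated spots were averaged per probe, and the brighter probe taken for each model (477 models had 2). A model passed where at least 0.5 of its spots were well above background on each array. Each array was set to its 75th percentile. Genes were named from the A. thaliana code in the model name, with roles known in A. thaliana assigned by hand.

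The members and lists were chosen with earlier results of these data known. Named genes were the 20 brightest, the 3 brightest and the dimmest of each list (lists of up to 5 in full), the 3 brightest of each class, the 5 largest rises and falls, and models at rank 300; further members were named after their values were seen. One gene that this rule would name is not reported here. No test was made: sample A and sample B were counted as 1 sample each, a change is called at 2-fold, and the number of arrays limits the precision.

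The normexp alternative used limma 3.58.1 in R 4.3.3 (offset 50, on median signals, since no mean signal column was used). The ranking and the quantile normalization ran in pandas 2.3.3 and numpy 2.4.6 under Python 3.11.15. The ranking was tested on simulated data.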

Additional observations from a re-analysis of the deposited data

How the results depend on the processing

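Of the 300 models, 282 to 300 were kept in each of 12 alternative rankings and 269 in all 12 (normexp, quantile normalization, the mean of a model's probes, a looser background filter, outlier spots kept, the median over arrays, each array left out, and each sample alone). In these rankings and with other list lengths, 223 of 238 list counts stayed within 1.5 times. Counts that stayed at 0 are included, as for the sperm cell, root and seed storage lists in every setting, so this share overstates how far the settings were put to the test. With sample B alone, 2 anther models were members. With 100 in place of 300 models, 11 photosynthesis, 3 ribosome, 3 housekeeping, 1 aquaporin and 0 myrosinase models were members. With 1000 there were 32 photosynthesis, 29 ribosome, 7 histone, 6 cuticle, 4 aquaporin, 3 anther, 2 jasmonate, 1 carpel and 1 flavonoid models. For sample B minus sample A, normexp gave 503 models at least 2-fold higher and 171 lower, against 762 and 292. The median difference moved by more than 1 SD of the arrays counted as repeats in 19 of 80 alternatives, a bar that holds no spread between samples. For all models it was 0.0226 with normexp, -0.0398 with quantile normalization, -0.0154 with equal medians, 0.0025 with the deposited table and -0.0088 to -0.0022 with an array left out, against -0.004. For the 300 it was -0.0061 with quantile normalization, 0.0028 with equal medians, and 0.0024 to 0.044 with an array left out. For the carpel list it was -0.0122 with quantile normalization and 0.0726 to 0.1752 with an array left out, for the pollen coat list 0.6983 with quantile normalization and 0.7012 to 0.7286 with an array left out, and with an array left out 0.2108 to 0.2525 for the ribosome list, 0.0234 to 0.0537 for late pollen, 0.5382 to 0.5828 for sperm cell genes and, for photosynthesis, -0.03 to 0.0045. Differences from the deposited table correlated with these at r = 0.998 across models, which are not independent replicates. No paired analysis was possible because no test was made and one tissue was used. Outlying arrays were not searched for, since the 4 arrays count as 2 samples.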
